A study of Homo sapiens with 16 samples.

Results

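Ribosome biogenesis factors are the proteins and ribonucleoprotein subunits that build ribosomes without being part of the finished particle. A fixed list of 42 such genes was followed in HL60, an acute promyelocytic leukaemia cell line of human origin, after inhibition of the kinase CDK7. The list was split by the step each factor serves into 17 small-subunit factors, 14 large-subunit factors, 8 proteins of small nucleolar ribonucleoproteins (snoRNPs) and 3 abundant nucleolar proteins. Of the 42 genes, 41 had a row in the count table of 18093 rows, and 40 passed the filter on low counts among 15472 genes tested. FBL, the box C/D methyltransferase, had no row and was not analysed here. PPAN, a large-subunit factor, had 0 counts in all 8 libraries. The whole of its counted interval was shared on the same strand with the rows of P2RY11 and the read-through gene PPAN-P2RY11, which also stood at 0.

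Cells without a genetic change took either 50 nM SY-351, an inhibitor of CDK7, or the solvent DMSO for 5 h. CDK7 is the kinase of the general transcription factor TFIIH and also activates the cell-cycle kinases. Polyadenylated RNA was sequenced from 4 numbered replicates of each group, each listed with 2 technical repeats. A separate table held the authors' comparison of splicing in SY-351 and control. Nothing in the labels ties the replicates to separate cultures, so p-values measure the spread between these samples, which may be technical.

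Ribosome assembly begins in the nucleolus, where RNA polymerase I makes a long precursor rRNA. The small-subunit processome, with the U3 snoRNP at its core, folds and cuts the 5′ part of this precursor. Pre-40S factors then carry the particle to the cytoplasm. A separate set of factors assembles the 60S subunit, among them the PeBoW complex of PES1, BOP1 and WDR12. Box C/D snoRNPs guide 2′-O-methylation of rRNA and box H/ACA snoRNPs guide pseudouridylation. In leukaemia and other growing cells many of these genes are known targets of the transcription factor MYC, which binds the E-box motif CACGTG.

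The libraries held 103.7 to 124.2 M counts in DMSO and 43.3 to 77.9 M with SY-351. Levels are given as CPM, counts for a fixed number of library counts, scaled by TMM (trimmed mean of M-values). On that scale 3 counts equal 0.015 to 0.0676 CPM. DMSO 1 and 2 stood apart from the rest: the correlation of log2 CPM over genes (Pearson's r) was 0.991 within this pair and 0.992 between DMSO 3 and 4, but 0.756 to 0.785 between the pairs, and 0.992 to 0.998 among SY-351 libraries. Each result below is therefore given with all 8 libraries and without DMSO 1 and 2, which leaves 2 control libraries. The myeloid markers MPO and CD33 were measured in every library, at 12116 to 48112 CPM and 3.10 to 86.4 CPM. CTSG, a further promyelocyte marker, stood at 19.4 to 670 CPM, and ELANE, PRTN3 and AZU1 had no row. The haemoglobin gene HBB stayed at or below 0.0301 CPM, and CD79A, a B-cell gene, stood at 4.53 to 15.9 CPM. KLF1, an erythroid gene, measured 7.76 and 9.02 CPM in DMSO 1 and 2, above CD33 there (5.64 and 3.10 CPM), and 0.248 to 1.32 CPM elsewhere.

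With all 8 libraries 13 of the 40 tested factors fell and 0 rose (edgeR quasi-likelihood test, Benjamini-Hochberg adjusted p below 0.05). Among all genes tested 13.6% were called lower and 2.91% higher. At an unadjusted p below 0.05 edgeR found 16 factors lower and 0 higher, beside 3492 and 1435 of 15472 genes. DESeq2 called 16 lower and 0 higher after adjustment, beside 3474 and 1057 of 15888 genes. The count of 13 became 7 on leaving out SY-351 1 and 8 on leaving out SY-351 3. The lower calls over all genes also dropped there, from 2100 of 15472 to 473 of 15796 and 487 of 15762. A term for the replicate number (replicate block) in the edgeR fit left 0 factors and 0 of all genes called. At an unadjusted p below 0.05 that edgeR fit had 15 factors lower, beside 2288 of 15472 genes. In bulk RNA, fewer cells with a transcript and less of it per cell cannot be told apart. By class, 8 of 17 small-subunit factors, 4 of 13 large-subunit factors, 1 of 7 snoRNP proteins and 0 of 3 abundant nucleolar proteins fell. Small-subunit calls became 5 on leaving out SY-351 1, and large-subunit calls 2 on leaving out any SY-351 library. The snoRNP calls became 0 on leaving out DMSO 1, DMSO 2 or any SY-351 library. Over all genes, lower calls numbered 473 to 602 without 1 SY-351 library, 1264 without DMSO 1 and 1458 without DMSO 2. The median log2 fold (SY-351 over DMSO) was -1.55, -1.35, 0.13 and 0.87 in these classes, -1.06 over all 40 and 0.00 over all genes.

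Without DMSO 1 and 2 the counts were 29 lower, 1 higher and 10 with no call, against 26.4% of all genes lower and 21.9% higher. All 17 small-subunit factors fell, with a median log2 fold of -1.59. Of the large-subunit factors 9 of 13 fell (median -1.67). Of the snoRNP proteins 3 of 7 fell and 1, NHP2, rose (median -0.20). None of the 3 abundant nucleolar proteins was called by edgeR, also at an unadjusted p below 0.05, and their log2 folds lay between -0.09 and -0.06. The difference between the classes was not tested. Another scaling moved these values: with library totals in place of TMM the median of all genes shifted to -0.45 without DMSO 1 and 2, and 39 factors were called lower and 1 higher, beside 43.3% and 13.1% of all genes. Relative to that shift the nucleolar proteins stood near the median of all genes, with log2 folds of -0.51 to -0.48.

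**Figure D1:**
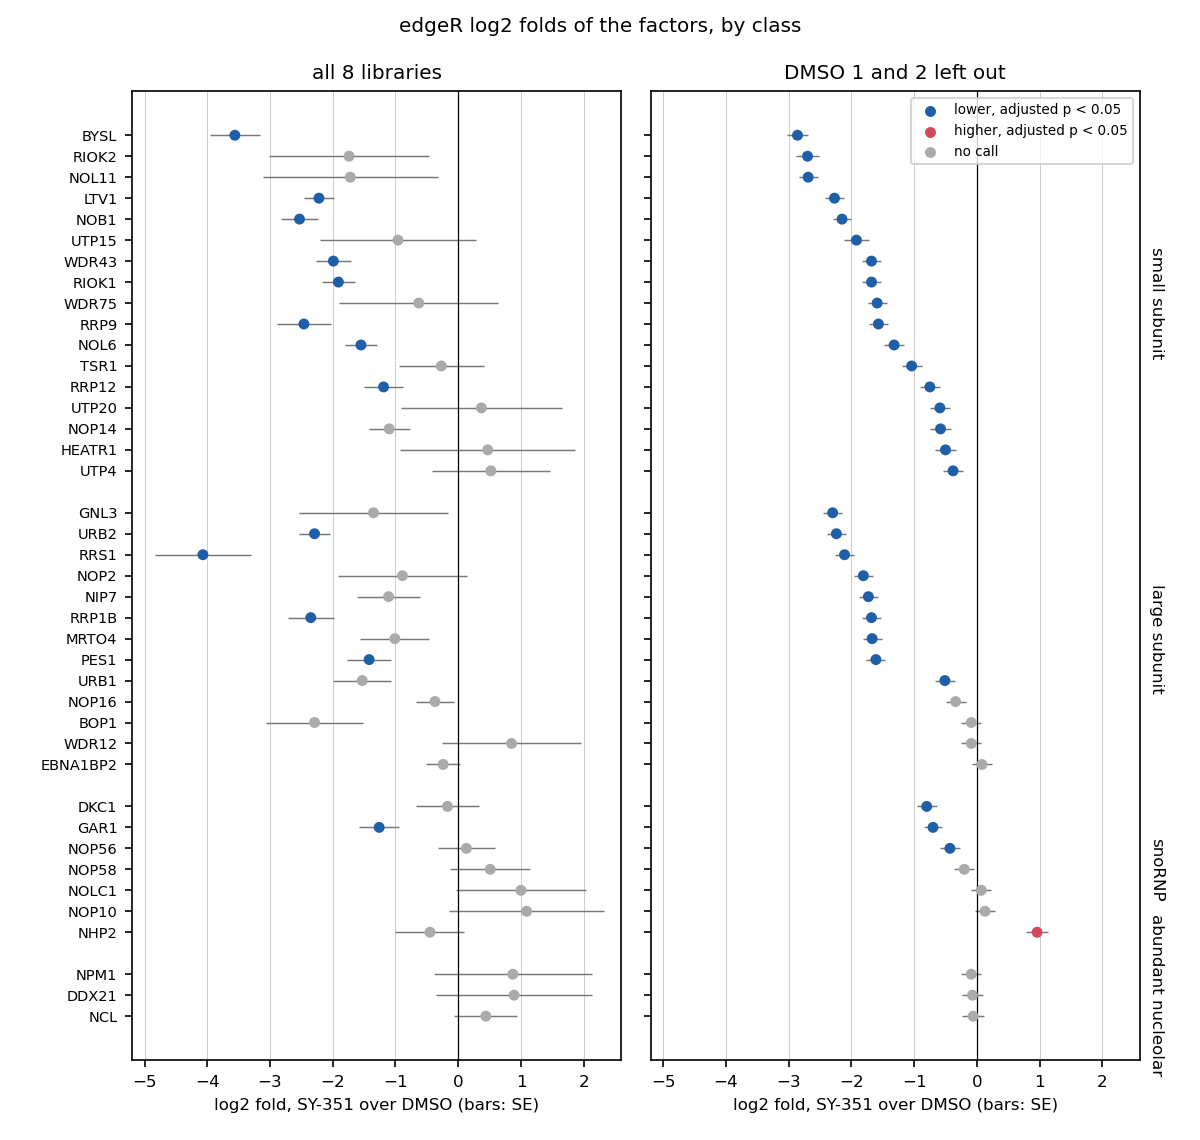
Log2 fold of SY-351 over DMSO for the 40 tested factors, sorted by class, with bars for the standard error. Left, all 8 libraries; right, DMSO 1 and 2 left out. Blue points were called lower and the red point higher (edgeR, adjusted p below 0.05); grey points had no call. All 17 small-subunit factors are blue on the right, and the 3 abundant nucleolar proteins lie between -0.09 and -0.06.

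The TMM-scaled CPM can also be compared library by library. The TMM factors were 1.61 for DMSO 3 and 1.21 for DMSO 4, against 1.02 to 1.07 with SY-351. The order of libraries against DMSO 3 and 4 depends on this scaling. In 15 of 40 factors every SY-351 library lay below every DMSO library, and in 0 every one lay above, against 18.2% and 15.5% of all genes. Set against DMSO 3 and 4 alone, 31 factors lay fully below and 1 fully above, against 29.7% and 26.7% of all genes. The 31 held 17 of 17 small-subunit factors, 10 of 13 large-subunit factors, 4 of 7 snoRNP proteins and 0 of 3 nucleolar proteins. With DMSO 1 and 2 as the only controls, 18 factors were called lower and 19 higher, beside 38.4% and 40.8% of all genes. There 9 small-subunit factors were lower and 8 higher, and 7 large-subunit factors lower and 3 higher. Of the snoRNP proteins 2 were lower and 5 higher, and of the nucleolar proteins 0 were lower and 3 higher.

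**Figure D2:**
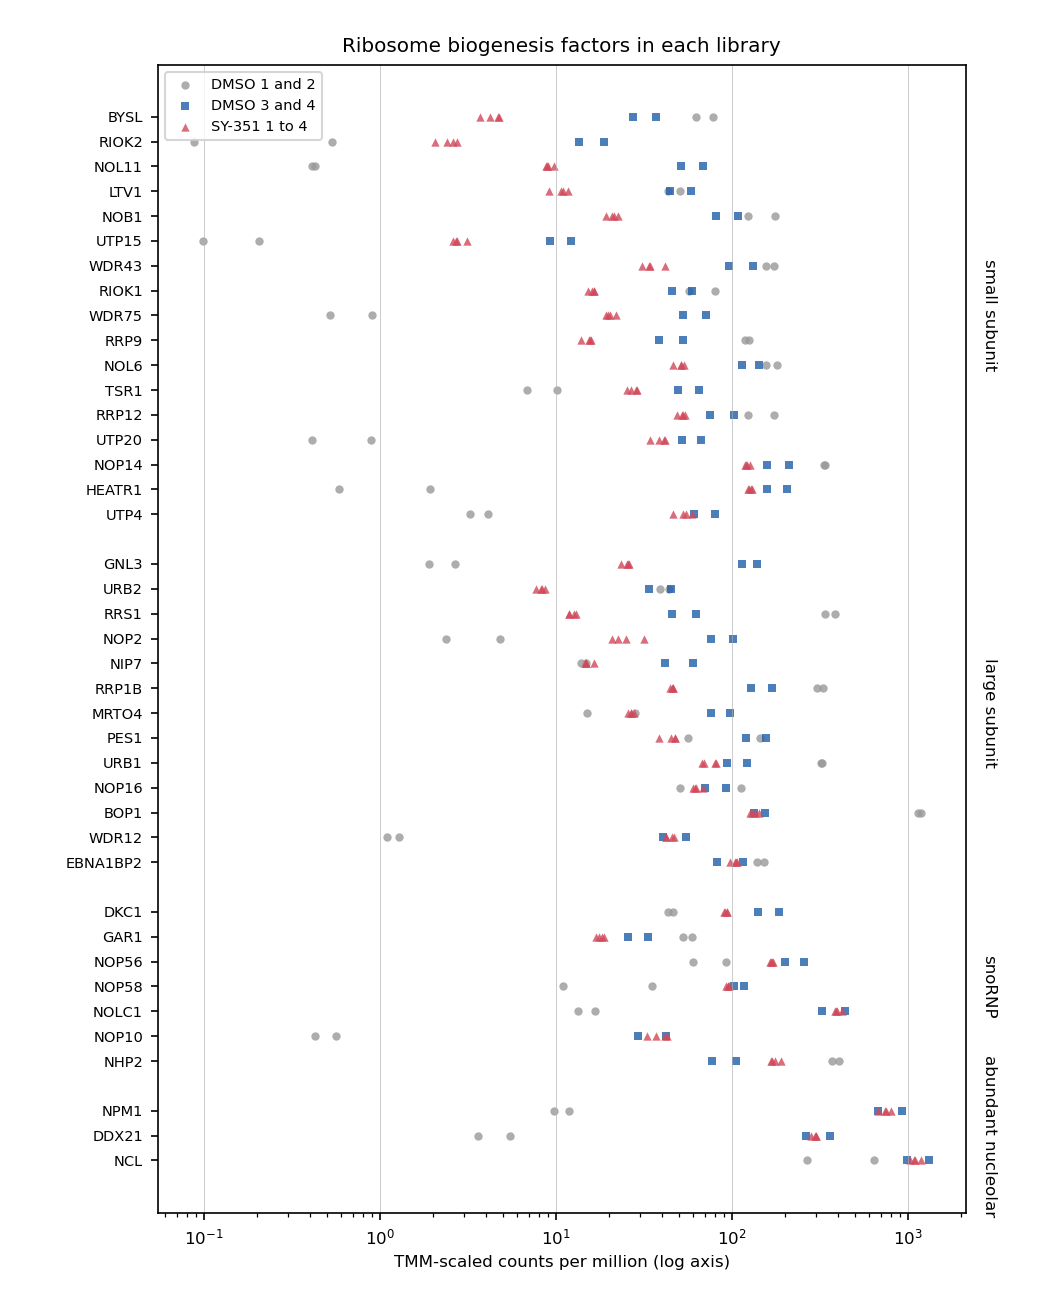
TMM-scaled CPM of the 40 tested factors in each of the 8 libraries, on a log axis. Grey circles are DMSO 1 and 2, blue squares DMSO 3 and 4, red triangles SY-351. HEATR1, UTP20, NOP10 and NPM1 are among the genes whose grey circles lie far left of the squares, and BOP1, RRS1 and NHP2 have theirs to the right.

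The E-box letters CACGTG were sought in the 300 bases around the annotated start of each gene (250 before, 50 after), from RefSeq on GRCh38.p14. The motif is its own reverse complement, so both strands are covered at once. A window was matched to 34 of the 41 factors with a row, and 14 of these 34 held the motif (41.2%). It stood in 8.91% of 12455 tested genes with a window and in 7.26% of all 35116 windows. The share was 8 of 16 for small-subunit factors, 5 of 10 for large-subunit factors, 1 of 5 for snoRNP proteins and 0 of 3 for the nucleolar proteins. Matches are letters in a window, not measured binding. The stretches below are shown because they carry this motif, in capitals, in genes from each of the first 3 classes and with log2 folds without DMSO 1 and 2 that run from -2.86 to 0.13. Each is written 5′ to 3′ on the strand of its gene and holds at most 30 bases from past the annotated start. The BYSL and LTV1 stretches lie wholly past that start, with the motif at bases 29 to 34.
BYSL (chr6:41921515-41921544, plus strand): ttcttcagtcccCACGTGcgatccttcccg
LTV1 (chr6:143843354-143843383, plus strand): gtcctggggctgCACGTGtggtgaggccta
WDR43 (chr2:28894630-28894696, plus strand): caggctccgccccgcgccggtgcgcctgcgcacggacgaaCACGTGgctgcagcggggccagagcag
RRP9 (chr3:51941875-51941949, minus strand): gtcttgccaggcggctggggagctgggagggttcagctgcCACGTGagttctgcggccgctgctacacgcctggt
UTP20 (chr12:101280055-101280134, plus strand): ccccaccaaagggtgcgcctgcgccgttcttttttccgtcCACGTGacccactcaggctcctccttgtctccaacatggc
UTP4 (chr16:69132593-69132678, plus strand): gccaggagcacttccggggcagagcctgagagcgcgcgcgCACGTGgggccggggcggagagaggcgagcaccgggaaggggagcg
GNL3 (chr3:52685998-52686061, plus strand): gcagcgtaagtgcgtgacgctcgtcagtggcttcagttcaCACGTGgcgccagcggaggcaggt
NOP10, near the start (chr15:34343107-34343187, minus strand): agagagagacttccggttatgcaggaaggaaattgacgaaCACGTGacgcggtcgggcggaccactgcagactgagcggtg
NOP10, upstream (chr15:34343261-34343346, minus strand): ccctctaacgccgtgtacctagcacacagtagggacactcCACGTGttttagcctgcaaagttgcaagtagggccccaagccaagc

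The 14 factors with the motif had a median log2 fold of -1.22 with 8 libraries and -1.59 without DMSO 1 and 2, with 6 and 12 of the 14 called lower. The 19 tested factors with a window but no motif had medians of -0.45 and -0.70, with 3 and 13 called lower. The difference between these sets was not tested. The sets also differ in class, as the motif stood in 1 of 5 snoRNP proteins and 0 of 3 nucleolar proteins. Among small-subunit factors, log2 folds without DMSO 1 and 2 ran from -2.86 (BYSL) to -0.38 (UTP4) with the motif. Those with a window but no motif ran from -2.70 (RIOK2) to -0.50 (HEATR1). Factors with the motif ranged from -2.86 (BYSL) to 0.13 (NOP10, which has it 2 times) without DMSO 1 and 2. MYC itself measured 6140, 5976, 1100 and 1457 CPM in DMSO 1 to 4, against 112, 135, 124 and 111 CPM in SY-351 1 to 4. Whether MYC had a part in the values of these factors was not tested. For PES1, the nearest window lies 15103 bases from the start of the counted interval, and 28 of the 34 windows start within 100 bases of it.

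The UTP-A subcomplex binds the nascent precursor rRNA first and is also needed for its transcription. Its 6 members all fell without DMSO 1 and 2 (median log2 fold -1.63), and 1 of 6, WDR43, fell with all 8 libraries. WDR43, a WD-repeat scaffold protein counted on chromosome 2 from 28894666 to 28948219, measured 155, 173, 95.7 and 131 CPM in DMSO 1 to 4 and 33.8, 41.4, 34.2 and 30.7 CPM in SY-351 1 to 4. The groups did not overlap, with every treated library under every control. Its log2 fold was -1.99 ± 0.28 (SE, edgeR adjusted p = 0.00562), against -1.68 ± 0.15 once DMSO 1 and 2 were left out.

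NOL11 (chromosome 17, 67717935 to 67744531), a partner of UTP4, stood at 0.409, 0.426, 51.3 and 68.1 CPM across the controls and 8.75, 8.87, 9.77 and 8.99 CPM with SY-351. DMSO 1 and 2 were thus the lowest libraries and DMSO 3 and 4 the highest, with the treated libraries between them. The 8-library fit gave -1.72 ± 1.39 with no call (adjusted p = 0.425, edgeR), while the fit without DMSO 1 and 2 gave -2.69 ± 0.15 (adjusted p = 1.72e-66). HEATR1 (chromosome 1, 236549004 to 236604516), a large repeat protein of the subcomplex, followed the same order with a smaller step. It measured 1.92, 0.588, 157 and 205 CPM across the controls and 128, 130, 124 and 123 CPM with SY-351, and its log2 fold without DMSO 1 and 2 was -0.50 ± 0.16 (edgeR adjusted p = 0.00378).

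UTP4 (cirhin, chromosome 16, 69132595 to 69169034), whose promoter stretch is printed above, measured 4.10, 3.25, 60.7 and 79.5 CPM across the controls and 58.8, 46.0, 52.4 and 54.3 CPM with SY-351. It had the smallest fall of the class without DMSO 1 and 2, -0.38 ± 0.16 (edgeR adjusted p = 0.0327), and with 8 libraries its log2 fold was 0.52 ± 0.94 with no call. WDR75 and UTP15 had log2 folds of -1.59 and -1.92 without DMSO 1 and 2. In DMSO 1 and 2 they were low, with 37 and 61 counts for WDR75 and 7 and 14 for UTP15, where DMSO 3 held 10470 and 1849. The direction of 5 of these 6 genes against DMSO thus depends on which pair of controls is used.

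The other processome members were UTP20, a scaffold of the particle, NOL6 and NOP14, assembly factors, and RRP9, the U3-specific WD-repeat protein. All 4 fell without DMSO 1 and 2. NOL6 (chromosome 9, 33461352 to 33473943) measured 179, 155, 113 and 141 CPM across the controls and 50.9, 50.9, 53.3 and 46.0 CPM with SY-351. It fell by 1.55 ± 0.25 on the log2 scale with 8 libraries (edgeR adjusted p = 0.00804), but leaving out SY-351 1 gave an adjusted p of 0.0507.

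RRP9 (chromosome 3, 51933428 to 51941904) measured 124, 118, 38.4 and 52.3 CPM across the controls and 13.8, 15.7, 15.5 and 15.3 CPM with SY-351. The groups did not overlap, and the distance was larger from DMSO 1 and 2. Its log2 fold was -2.46 ± 0.43 (edgeR adjusted p = 0.00933), against -1.57 ± 0.15 once DMSO 1 and 2 were left out. Without SY-351 1 or SY-351 3 the adjusted p of RRP9 became 0.0517 or 0.0507.

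NOP14 (chromosome 4, 2937936 to 2963406) measured 333, 338, 158 and 210 CPM across the controls and 126, 120, 121 and 118 CPM with SY-351. No library of one group reached the other, and the adjusted p was 0.0534 (log2 fold -1.10 ± 0.33, edgeR), just outside the threshold. Leaving out DMSO 3 or DMSO 4 brought it to 0.0117 or 0.0491, and without DMSO 1 and 2 the log2 fold was -0.58 ± 0.16. UTP20 (chromosome 12, 101280104 to 101386618) measured 0.889, 0.411, 52.1 and 66.7 CPM across the controls and 38.5, 41.4, 41.2 and 34.3 CPM with SY-351, which lay between the control pairs. Its log2 fold was 0.37 ± 1.28 with 8 libraries and -0.59 ± 0.16 without DMSO 1 and 2 (edgeR adjusted p = 0.000535).

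Of the pre-40S factors 5 of 7 fell with 8 libraries and 7 of 7 without DMSO 1 and 2, with medians of -1.91 and -2.15. BYSL (bystin, chromosome 6, 41921498 to 41933046), an assembly and export factor, measured 62.5, 77.2, 27.2 and 36.9 CPM across the controls and 4.68, 4.74, 4.2 and 3.7 CPM with SY-351. Its level against DMSO 3 and 4 was 7.40-fold lower, the largest such step among the members called with 8 libraries. The log2 fold was -3.56 ± 0.40 (edgeR adjusted p = 0.00304), against -2.86 ± 0.16 once DMSO 1 and 2 were left out.

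LTV1 (chromosome 6, 143843337 to 143863812), an assembly factor released before the final steps, measured 42.9, 50.5, 44.5 and 58.6 CPM across the controls and 10.6, 11.6, 10.9 and 9.06 CPM with SY-351. Here the 4 controls lay close together, with DMSO 1 and 2 at a log2 ratio of -0.14 to DMSO 3 and 4. The log2 fold was accordingly similar in both fits, -2.22 ± 0.24 (edgeR adjusted p = 0.00291) and -2.27 ± 0.15. RRP12 (chromosome 10, 97356356 to 97401340), an export factor, measured 173, 123, 74.8 and 102 CPM across the controls and 52.5, 54.1, 51.9 and 48.4 CPM with SY-351. Its call (log2 fold -1.19 ± 0.31, edgeR adjusted p = 0.0334) was lost on leaving out DMSO 1, DMSO 2 or any SY-351 library, with adjusted p of 0.0668 to 0.118.

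NOB1, the endonuclease that makes the 3′ end of 18S rRNA, had a log2 fold of -2.53 ± 0.30 with 8 libraries (edgeR adjusted p = 0.00324), against -2.15 ± 0.15 once DMSO 1 and 2 were left out. RIOK1, an atypical kinase of late pre-40S particles, had log2 folds of -1.91 ± 0.26 (edgeR adjusted p = 0.00486) and -1.68 ± 0.15. Its relative RIOK2 had no call with 8 libraries, with 38 and 6 counts in DMSO 1 and 2 against 2683 and 2649 in DMSO 3 and 4, and a log2 fold of -2.70 ± 0.19 without DMSO 1 and 2 (edgeR adjusted p = 1.82e-44). TSR1, a GTPase-like factor that blocks early subunit joining, had no call with 8 libraries (log2 fold -0.27 ± 0.68). Its log2 fold was -1.04 ± 0.16 without DMSO 1 and 2. On the other strand SRR covers 17.5% of its interval, and SRR also had a log2 fold of -1.04 in that fit. Whether the 2 rows shared reads was not tested.

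In the PeBoW complex, which is needed to process the 28S and 5.8S rRNA, 1 of the 3 partners fell in both fits. PES1 (chromosome 22, 30576624 to 30607013) measured 144, 56.1, 119 and 156 CPM across the controls and 47.5, 47.1, 44.9 and 38.6 CPM with SY-351. It fell with a log2 fold of -1.42 ± 0.35 (edgeR adjusted p = 0.0298), and by 1.61 ± 0.15 without DMSO 1 and 2. The 8-library call was lost on leaving out DMSO 1 or any SY-351 library, with adjusted p of 0.0712 to 0.108.

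BOP1, its direct partner, measured 1132, 1173, 132 and 154 CPM across the controls and 142, 129, 135 and 126 CPM with SY-351. On the TMM scale the SY-351 libraries overlapped DMSO 3 and 4 and lay far below DMSO 1 and 2. With 8 libraries the log2 fold of -2.29 ± 0.77 had an adjusted p of 0.0787 (edgeR), and without DMSO 1 and 2 it was -0.09 ± 0.16. With library totals in place of TMM the latter became -0.52 ± 0.07, called lower. WDR12 had the opposite control pattern, with 1.28 and 1.10 CPM in DMSO 1 and 2 and 40.4 and 54.5 CPM in DMSO 3 and 4, and also a log2 fold of -0.09 ± 0.16 without DMSO 1 and 2.

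Of the other large-subunit factors 3 of 10 fell with 8 libraries and 8 of 10 without DMSO 1 and 2 (median -1.70). URB2 (chromosome 1, 229626215 to 229660200), a nucleolar factor of early pre-60S particles, measured 38.7, 43.5, 33.6 and 45.1 CPM across the controls and 8.18, 8.29, 8.65 and 7.68 CPM with SY-351. Its controls lay between 33.6 and 45.1 CPM and the treated libraries lay 4.8-fold below DMSO 3 and 4. The log2 fold was -2.29 ± 0.24 (edgeR adjusted p = 0.00291), against -2.24 ± 0.15 once DMSO 1 and 2 were left out.

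RRP1B (chromosome 21, 43659559 to 43696079), a nucleolar protein that binds chromatin and pre-60S particles, measured 326, 304, 128 and 169 CPM across the controls and 45.3, 46.3, 46.2 and 44.3 CPM with SY-351. Every treated library was below every control (log2 fold -2.35 ± 0.37, edgeR adjusted p = 0.00743; -1.68 ± 0.15 without DMSO 1 and 2). URB1 (chromosome 21, 32311017 to 32393012), which binds early pre-60S particles, measured 317, 325, 93 and 121 CPM across the controls and 69.4, 79.4, 80.6 and 67.7 CPM with SY-351. The libraries did not overlap, but the adjusted p was 0.055 (log2 fold -1.53 ± 0.46, edgeR), and it became 0.0148 or 0.0383 without DMSO 3 or DMSO 4. The log2 fold of URB1 was -0.51 ± 0.16 without DMSO 1 and 2.

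GNL3 (nucleostemin, chromosome 3, 52686031 to 52694494), a nucleolar GTPase, measured 1.90, 2.66, 113 and 138 CPM across the controls and 23.4, 25.6, 25.3 and 25.9 CPM with SY-351. Without DMSO 1 and 2 it had the lowest log2 fold among large-subunit factors, -2.30 ± 0.15 (edgeR adjusted p = 3.56e-48), and with 8 libraries no call (-1.35 ± 1.19). RRS1, which helps to bring the 5S particle into pre-60S, had log2 folds of -4.07 ± 0.76 with 8 libraries (edgeR adjusted p = 0.012), against -2.11 ± 0.15 once DMSO 1 and 2 were left out. Its call with 8 libraries was lost on leaving out any SY-351 library (adjusted p of 0.0534 to 0.058).

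NOP2, an rRNA cytosine methyltransferase, NIP7, an rRNA-binding factor, and MRTO4, which holds the place of a stalk protein, fell by 1.81, 1.73 and 1.67 on the log2 scale without DMSO 1 and 2. With 8 libraries none of these genes had a call (log2 folds -0.89, -1.11 and -1.01). NOP2 was called higher against DMSO 1 and 2 alone (log2 fold 2.64 ± 0.32, edgeR adjusted p = 0.000152). NIP7 and MRTO4 had no call against DMSO 1 and 2 alone (log2 folds -0.06 ± 0.11 and 0.17 ± 0.22). NOP16 and EBNA1BP2, both pre-60S proteins, had no call in either fit, with log2 folds of -0.34 ± 0.16 and 0.08 ± 0.16 without DMSO 1 and 2.

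The box C/D core proteins NOP56 and NOP58 hold the guide RNA and place the methyltransferase. NOP56 (chromosome 20, 2652631 to 2658393) measured 91.8, 59.6, 199 and 257 CPM across the controls and 167, 170, 163 and 165 CPM with SY-351, above DMSO 1 and 2 and below DMSO 3 and 4. It fell by 0.43 ± 0.16 without DMSO 1 and 2 (edgeR adjusted p = 0.0129) and had a log2 fold of 0.13 ± 0.46 with 8 libraries. NOP58 (chromosome 2, 202265762 to 202303661) measured 34.9, 11, 102 and 117 CPM across the controls and 94.7, 94.4, 96.1 and 92.2 CPM with SY-351. Its log2 fold of -0.20 ± 0.16 without DMSO 1 and 2 had no call (edgeR adjusted p = 0.331).

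Of the 4 box H/ACA proteins, GAR1 alone was called with 8 libraries. GAR1 (chromosome 4, 109815509 to 109824737), which helps the rRNA substrate in and out of the enzyme, measured 52.7, 59.2, 25.5 and 33.4 CPM across the controls and 18.8, 17.5, 16.9 and 18.1 CPM with SY-351. All treated libraries were below all controls. The log2 fold was -1.26 ± 0.32 (edgeR adjusted p = 0.0321), against -0.70 ± 0.15 once DMSO 1 and 2 were left out. The 8-library call was lost on leaving out DMSO 1, DMSO 2 or any SY-351 library (adjusted p of 0.068 to 0.117).

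NHP2 (chromosome 5, 178149464 to 178153960), an RNA-binding core protein, was the 1 factor that rose in the fit without DMSO 1 and 2. It measured 403, 368, 77.1 and 105 CPM across the controls and 190, 168, 165 and 174 CPM with SY-351. The treated libraries lay 1.92-fold above DMSO 3 and 4 and below DMSO 1 and 2. The log2 fold was 0.96 ± 0.17 against DMSO 3 and 4 (edgeR adjusted p = 3.86e-08), -1.29 ± 0.08 against DMSO 1 and 2 and -0.45 ± 0.55 against all 4. RMND5B, which covers 24.6% of the interval on the other strand, had a log2 fold of 0.53 ± 0.16 without DMSO 1 and 2, and whether its reads entered the NHP2 row was not tested. NHP2 and TSR1 are among 10 factors whose interval meets a row of the other strand.

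NOP10 (chromosome 15, 34341715 to 34343161), the smallest core protein, measured 0.564, 0.426, 29.3 and 41.8 CPM across the controls and 42.5, 36.9, 41.3 and 32.8 CPM with SY-351. DMSO 3 and 4 overlapped the treated libraries, and the log2 fold without DMSO 1 and 2 was 0.13 ± 0.16 with no call. DKC1, the pseudouridine synthase mutated in dyskeratosis congenita, fell by 0.80 ± 0.16 without DMSO 1 and 2 (edgeR adjusted p = 1.45e-06). With 8 libraries DKC1 had no call (log2 fold -0.17 ± 0.50). Against DMSO 1 and 2 alone it was called higher (0.90 ± 0.08, edgeR adjusted p = 5.38e-06). NOLC1 (chromosome 10, 102152175 to 102163871), the chaperone that shuttles snoRNPs between Cajal bodies and nucleoli, measured 16.6, 13.3, 325 and 438 CPM across the controls and 422, 387, 393 and 381 CPM with SY-351. Its treated libraries lay within the range of DMSO 3 and 4 (log2 fold 0.07 ± 0.16 without DMSO 1 and 2).

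The 3 abundant nucleolar proteins did not pass the test in either fit. NCL (nucleolin, chromosome 2, 231453530 to 231464484), which binds precursor rRNA, measured 641, 264, 988 and 1313 CPM across the controls and 1180, 1074, 1023 and 1084 CPM with SY-351. DDX21 (chromosome 10, 68956169 to 68985068), an RNA helicase linked to polymerase I, measured 5.49, 3.58, 263 and 360 CPM across the controls and 299, 295, 280 and 297 CPM with SY-351. For both genes the treated libraries lay between DMSO 3 and DMSO 4 on the TMM scale. With library totals in place of TMM, all 3 proteins were called lower without DMSO 1 and 2 (log2 folds -0.51 to -0.48). In that fit 43.3% of all genes were called lower. NPM1 (nucleophosmin), a histone and ribosome chaperone, had 835 and 663 counts in DMSO 1 and 2 and 134176 and 129723 in DMSO 3 and 4, and a log2 fold of -0.09 ± 0.16 without DMSO 1 and 2.

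A further 93 ribosome biogenesis genes outside the 42 were listed by class, and 87 of them had a row and were tested. With 8 libraries edgeR called 26 of 87 lower and 0 higher (30 and 0 at an unadjusted p below 0.05; 30 and 0 with DESeq2), beside 13.6% and 2.91% of all genes, with a median log2 fold of -0.54. The count of 26 became 6 or 7 on leaving out any SY-351 library, and 15 or 16 on leaving out DMSO 1 or DMSO 2. Over all genes the 2100 lower calls became 473 to 602, and 1264 or 1458, in these fits. By class 14 of 35 small-subunit, 10 of 43 large-subunit and 2 of 9 snoRNP genes fell. The smallest adjusted p in these classes belonged to ABT1 and UTP23, both early processome factors (log2 folds -3.92 and -2.37), to ZNF622 and GRWD1, both large-subunit factors (-3.86 and -4.53), and to NUFIP1 and NAF1, snoRNP assembly factors (-3.73 and -2.13). Without DMSO 1 and 2 the counts were 61 lower and 5 higher (median -0.79), beside 26.4% and 21.9% of all genes: 29 of 35 small-subunit, 29 of 43 large-subunit and 3 of 9 snoRNP genes fell.

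In that fit the smallest adjusted p among lower calls belonged to NGDN and ABT1 (log2 folds -3.45 and -3.12), to NIFK and BRIX1 (-3.05 and -2.90), and to NUFIP1 and ZNHIT6 (-2.43 and -0.78). Among higher calls it belonged to TSR2, a carrier of a small-subunit protein (0.90), to NSA2 and EIF6, pre-60S factors (0.62 and 0.42), and to PIH1D1 (0.41), a subunit of the R2TP chaperone. The medians were -1.22 for small-subunit, -0.62 for large-subunit and -0.18 for snoRNP genes, against -1.37, -0.40 and -0.47 with 8 libraries.

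**Figure D3:**
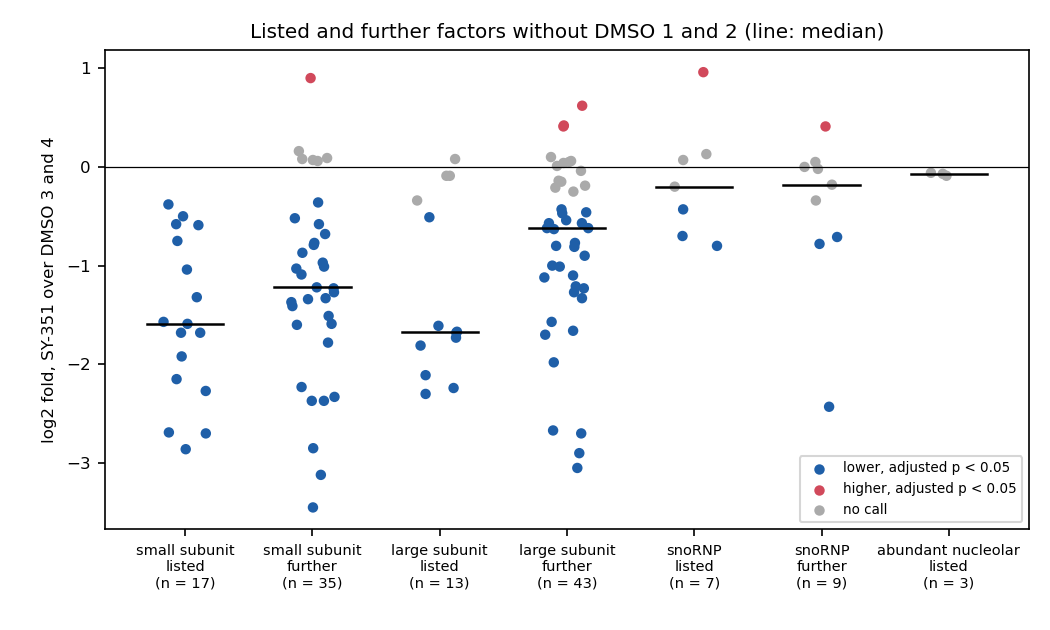
Log2 fold of SY-351 over DMSO 3 and 4 for the listed factors and the further genes of each class; each point is 1 gene and the line is the median. Small-subunit genes have medians of -1.59 (listed) and -1.22 (further), large-subunit genes -1.67 and -0.62, snoRNP genes -0.20 and -0.18.

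The controls differed among themselves in most members. In 21 of 40 factors both DMSO 1 and 2 lay below both DMSO 3 and 4, and in 14 both lay above, against 43.9% and 37.1% of all genes. All 3 nucleolar proteins and 5 of 6 UTP-A members were in the lower group. NPM1 had the second lowest log2 ratio between the pairs, -6.14, after HEATR1 at -6.70, while BOP1 and RRS1 had the highest, 3.01 and 2.73 (log2 of CPM + 0.5). Across the 40 factors this ratio went with the GC content of the transcript, which ran from 36.5 to 65.2% (Pearson's r 0.67, Spearman's rho 0.67, over 40 genes that share the same 4 libraries). Over 14950 tested genes r was 0.56. The log2 fold without DMSO 1 and 2 had r of 0.10 with GC content over the same factors, and -0.03 with the log2 length of the counted interval. What set DMSO 1 and 2 apart was not tested.

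**Figure D4:**
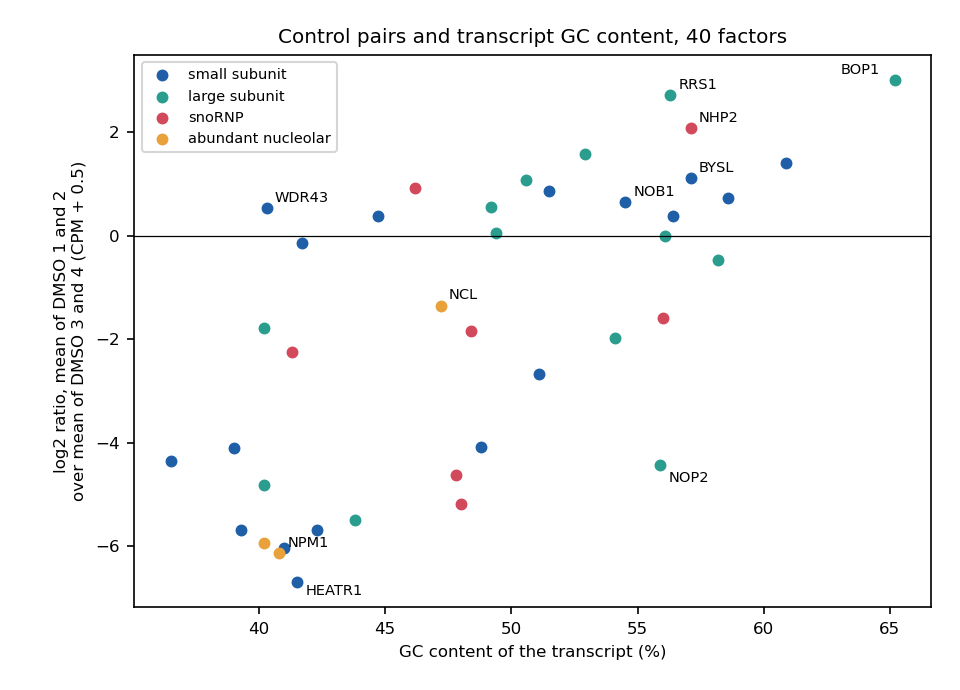
Log2 ratio of DMSO 1 and 2 over DMSO 3 and 4 (mean CPM + 0.5) against the GC content of the transcript for the 40 tested factors, coloured by class. Most factors below 45% GC lie below 0, with HEATR1 lowest at -6.70, and BOP1, at 65.2% GC, is highest at 3.01.

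Because the counted intervals run from transcript start to end with introns, snoRNA genes inside them were looked up in GENCODE. A snoRNA gene on the same strand lay inside 9 of the 40 tested factors (22.5%), against 1.43% of all tested genes. With the snoRNA genes that carry a SNORD or SNORA symbol, they were WDR43 (SNORD53, SNORD53B, SNORD92), NOL11 (SNORA38B), TSR1 (SNORD91A, SNORD91B), URB1 (SNORA80A), GNL3 (SNORD19, SNORD19B, SNORD69), NOP56 (SNORA51, SNORD56, SNORD57, SNORD86, SNORD110), NOP58 (SNORD11, SNORD11B, SNORD70), DKC1 (SNORA36A, SNORA56) and NCL (SNORA75, SNORD20, SNORD82). The 9 hosts, in the fit without DMSO 1 and 2, had a median log2 fold of -0.80, with 7 called lower, and the 31 other factors had -1.32, with 22 called lower. The median of all 222 tested host genes was 0.12. The difference between hosts and other factors was not tested. The sets differ in class, with NOP56, NOP58, DKC1 and NCL among the 9 hosts. The small-subunit hosts WDR43, NOL11 and TSR1 had log2 folds of -1.68, -2.69 and -1.04 without DMSO 1 and 2. The median of all 17 small-subunit factors was -1.59 in that fit.

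The authors' deposited splicing table lists local splicing variations, sets of junctions that share an exon, with an expected inclusion from 0 to 1 in control and in SY-351 and a posterior probability that the inclusion changed by at least 0.2. It held 19 variations in 11 factors: 8 small-subunit factors, the large-subunit factors URB1 and URB2, and NCL. At a probability of at least 0.95, 7 of the 11 factors had a change, beside 64.2% of all 3700 genes with a variation. The 7 were WDR43, WDR75, UTP4, LTV1, URB1, URB2 and NCL. No snoRNP protein had a variation in the table.

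In all 19 variations the form that led in control had a lower inclusion with SY-351, as in 89.4% of the 6716 variations of the authors' deposited table. That form was picked as the highest in control, and a form near 1 there has little room to rise. The shared direction is thus largely set by this choice. The largest difference was in NCL, where a retained intron led in control with an inclusion of 0.737 and stood at 0.027 with SY-351 (deposited difference -0.725, probability 1). It was the 1 member variation that counted a retained intron. With TMM, NCL's total count did not pass the test with 8 libraries or without DMSO 1 and 2. In the authors' deposited table a WDR43 junction went from 0.997 to 0.456 (difference -0.535, probability 1). The 2 WDR75 variations in that table went from 0.966 to 0.603 and from 0.965 to 0.589. In the authors' deposited table the leading difference was -0.392 in URB2, -0.345 in LTV1, -0.301 in URB1 and -0.296 in UTP4. In 16 of the 19 the leading form had an inclusion of at least 0.9 in control, against 43.2% of all variations. The table has no values per library, so no spread can be given, and the sources used here do not say which libraries stood behind its control group.

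**Figure D5:**
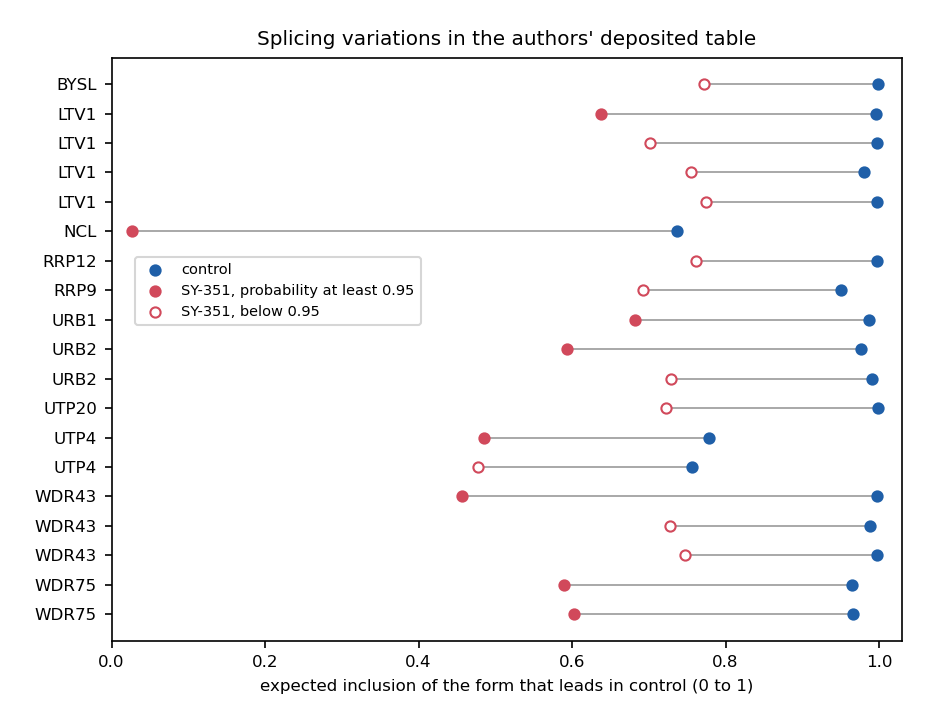
Expected inclusion of the splice form that leads in control (blue) and of the same form with SY-351 (red) for the 19 variations of 11 factors in the authors' deposited table; filled red points have a probability of change of at least 0.95. Every red point lies left of its blue point, and NCL moves farthest, from 0.737 to 0.027. The form was picked as the highest in control, which favours a move to the left.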

How the data were processed

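Whole-number read counts per RefSeq transcript were made by the authors with featureCounts 1.6.2 and strand setting 1, over 1 interval from transcript start to end, per the file headers. The build is GRCh38 and DESeq2 was used, per the submitters' processing notes. How technical repeats entered the 8 columns, and whether the kit kept strand, is not given in the sources used here. Transcripts were matched to symbols through RefSeq (17871 rows) and GENCODE (130 rows). Counts were tested with edgeR 4.0.16 (TMM, filterByExpr, robust glmQLFit, glmQLFTest; 2-sided; group as the only term) over all genes, with Benjamini-Hochberg adjustment and a threshold of 0.05. CPM are TMM-scaled, and SE is the log2 fold over the square root of F. DESeq2 1.42.0 was an alternative. The code was tested on simulated data. Those data held no split such as that of DMSO 1 and 2, so the 8-library fit was not tested in that setting.

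The deposited splicing values (inclusion as a fraction, its difference, and a probability, listed as scores) are the authors' own, with column names of MAJIQ and Voila, per the file headers. The authors' difference was turned to SY-351 minus control.

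Values in every library were given for the 2 members with the smallest adjusted p and the one with the highest mean CPM in each subclass, for members called higher and for those with a printed sequence. Of the further genes, the 2 per class and direction with the smallest adjusted p were named. For MYC only values per library were given. The members, classes and lists were chosen with earlier results of these data known.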

Additional observations from a re-analysis of the deposited data

Results flagged for a closer look

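Among 80 groups of 4 libraries (40 factors in DMSO and in SY-351), 1 held a library far from its group. NIP7, the pre-60S factor, measured 16.4 CPM in SY-351 3, against 14.6 to 14.8 CPM in SY-351 1, 2 and 4. Chance marks about 1 in 20 such groups. The ratio looks for a library apart from the rest of its group, so it does not mark a split such as that between the DMSO pairs.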

How the results depend on the processing

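Of 40 tested factors, DESeq2 (16 lower), DESeq2 size factors (13), total counts (14) and no filter (13) kept the count of lower calls within 1.5 times of 13. Leaving out 1 library gave 7 to 16 lower calls, with 7 without SY-351 1 and 8 without SY-351 3. Over all genes these fits had 473 to 3438 lower calls. In such leave-outs small-subunit factors ranged from 5 to 9, large-subunit factors from 2 to 6, snoRNP proteins from 0 to 1 and the further genes from 6 to 32. The replicate block gave 0 lower in each class and in the further genes (15 of 40 factors at an unadjusted p below 0.05). Same-numbered replicates had deviation correlations of -0.134 to 0.007, and differently numbered ones -0.049 to 0.109. The DMSO deviations carry the split of DMSO 1 and 2 from DMSO 3 and 4. These values therefore cannot settle whether the numbers pair the samples.

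Without DMSO 1 and 2 there were 29 factors lower and 1 higher (17, 9 and 3 lower by class), and 61 lower and 5 higher among the further genes. With these as the only controls, 18 factors were lower and 19 higher, and 37 further genes lower and 46 higher. By class 9 small-subunit factors, 7 large-subunit factors and 2 snoRNP proteins were lower, and 8, 3 and 5 higher. All 3 nucleolar proteins were higher there. Total counts without DMSO 1 and 2 were an alternative chosen after seeing the data. That fit had 39 factors lower and 1 higher (17, 13 and 6 lower by class). Among the further genes 82 were lower and 2 higher. The share of lower calls over all genes was 54.6% with TMM and 76.8% with total counts there. Splicing calls held at 6 to 7 factors.

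Log2 folds changed sign as follows. In the replicate block WDR75 was 1.62, UTP15 1.04, NOL11 0.84, RIOK2 0.08, TSR1 0.32, NOP2 0.45, GNL3 0.57 and DKC1 0.12. Without DMSO 1 and 2 UTP4 was -0.38, HEATR1 -0.50, UTP20 -0.59, WDR12 -0.09, EBNA1BP2 0.08, NOP56 -0.43, NOP58 -0.20, NHP2 0.96, NCL -0.06, NPM1 -0.09 and DDX21 -0.07. With total counts as well UTP4 was -0.81, HEATR1 -0.92, UTP20 -1.01, WDR12 -0.51, NOP56 -0.86, NOP58 -0.64, NHP2 0.54, NOP10 -0.28, NOLC1 -0.35, NCL -0.48, NPM1 -0.51 and DDX21 -0.49. With DMSO 1 and 2 as the only controls WDR75 was 4.70, UTP15 4.04, NOL11 4.30, RIOK2 2.81, TSR1 1.54, NOP2 2.64, GNL3 3.31, MRTO4 0.17 and DKC1 0.90. With total counts and 8 libraries UTP20 was -0.02 and NOP56 -0.07. Over the fits that left out 1 library WDR75 ranged from -1.04 to 0.20, UTP20 from -0.04 to 1.15, TSR1 from -0.60 to 0.33, NOP56 from -0.14 to 0.54 and DKC1 from -0.43 to 0.30. The cause was not tested. The 2 controls left without DMSO 1 and 2 limit every call of that fit.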
